A study of Danio rerio with 6 samples.

Results

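The SLC25 family is the largest family of proteins that move solutes across the inner membrane of mitochondria, and its transcripts were followed in zebrafish kidney marrow. Members were all genes of the deposited table whose symbol starts with slc25a, which gave 48 of 15292 genes. The table holds 3 grna-/- and 3 grna+/+ libraries, each from the whole, unsorted kidney marrow of 1 adult fish, and the control fish were siblings of the mutants. grna encodes a granulin, a secreted protein that also reaches lysosomes, and the lesion in the mutant allele is not described in the labels. No label names a further allele, a treatment, or the sex of a fish. Values are TPM, transcript levels set relative to gene length and brought to one sum in all libraries.

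SLC25 carriers are small membrane proteins built of 3 similar repeats, and most of them exchange one metabolite for another between the cytosol and the mitochondrial matrix. Their cargo includes ADP and ATP, phosphate, nucleotides, amino acids, coenzymes, organic acids, iron and glutathione. In the marrow, where blood cells form, red cell precursors make heme partly inside mitochondria, so iron and glycine have to cross the inner membrane there. The zebrafish genome holds several of these carriers as pairs of paralogs, marked a and b in their symbols.

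Depth was similar across the libraries, from 11080875 to 14075134 counted reads, and 12842 to 13048 genes had a value above 0. The grna transcript was lower in all 3 grna-/- libraries (65.2 to 74.0 TPM) than in the grna+/+ libraries (134.7 to 151.2 TPM). Library grna+/+ replicate 2 stood furthest from the rest. Its median correlation with the other 5 libraries over tested genes was 0.934, against 0.957 to 0.969 for the others. For some genes, values without it are also given.

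Most blood and kidney markers of the labelled tissue were present, and those of red cells were higher in grna-/- fish. The neutrophil gene npsn was at 0 outside grna-/- replicate 3 and grna+/+ replicate 2, and the globin gene ba1 outside grna+/+ replicate 1. Of 16 tested erythroid markers 6 rose in grna-/- and none fell, where 0.660% of all genes tested rose and 0.493% fell. The 6 were alas2, epb41b, ank1a, nt5c2l1, creg1 and sox6. The marker lists were chosen with earlier results of these data known, so such counts are not independent of the data. With the replicate number as a block 9 of the 16 were called, and in voom on recovered reads 4. Over all genes tested the block gave 149 rises and 122 falls, and voom gave 43 and 29. The summed level of the list was 81643 to 94455 TPM in grna-/- fish and 21656 to 51086 TPM in grna+/+ fish. The globin genes hbaa1 and ba1l made up 95.1% to 97.0% of that sum in a library. Neither passed in the main fit (limma adjusted p = 0.0818 and 0.0838), and both passed with the block. None of 15 tested neutrophil markers passed in limma or voom, 9 had an unadjusted p below 0.05 and 5 passed with the block. Of all genes tested, 17.6% had an unadjusted p below 0.05 in limma. The summed level of the neutrophil markers was 27219 to 49608 TPM in grna-/- fish and 50019.8 to 59724 TPM in grna+/+ fish. Its largest part was lyz, at 32874, 16919.8 and 25264 TPM in grna-/- fish and 33688, 26447 and 33708 TPM in grna+/+ fish. Those ranges overlap (limma adjusted p = 0.405). For 8 of the 15 the ranges did not overlap and were lower in grna-/-, against 10.6% of all genes tested. Kidney tubule markers overlapped, at 2956 to 5892 TPM in grna-/- fish and 2502 to 4066 TPM in grna+/+ fish, with aqp8b at 0 throughout. None of the 22 tested passed in limma or voom, 6 had an unadjusted p below 0.05 and 3 passed with the block. Of the other marker lists, 3 of 6 tested podocyte genes fell, 1 gene fell in each of the macrophage, thrombocyte, and endothelium and stroma lists, and 1 of 6 liver and pancreas genes rose. In voom the podocyte count was 2 and the thrombocyte and the liver and pancreas calls were lost, and with the block 2 thrombocyte genes were called. In bulk marrow, fewer cells of a type and less RNA per cell cannot be told apart.

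A group of 3 carriers supplied most of the family's transcripts in both genotypes. slc25a5, an ADP/ATP carrier that sends ATP out of mitochondria, was at 4627, 6559 and 4632 TPM in grna-/- replicates 1 to 3, against 5719.6, 6453 and 4973 TPM in grna+/+ replicates 1 to 3. The 2 ranges overlap, and slc25a5 alone made up 73.9% to 77.7% of the family's TPM in a library. The phosphate carrier gene slc25a3b followed at 699 ± 91.2 TPM in grna-/- fish and 670.2 ± 56.6 TPM in grna+/+ fish (SD, n = 3 each). Next came slc25a22, at 317 ± 22.7 TPM in grna-/- fish and 362 ± 39.6 TPM in grna+/+ fish. SLC25A22 carries glutamate in mammals, and a RefSeq gene table of assembly GRCz12tu lists this symbol as a synonym of slc25a55a. Together the 3 genes held 89.3% to 91.0% of the family's TPM.

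The other 45 members ranged widely. Averaged over the 6 libraries, 23 members lay between 10 and 100 TPM, 15 between 1 and 10 TPM and 7 below 1 TPM. The whole family summed to 6228, 8438 and 6267 TPM in grna-/- replicates 1 to 3, against 7435, 8467 and 6598 TPM in grna+/+ replicates 1 to 3. That is 0.623% to 0.847% of all TPM in a library. The summed level overlapped between the genotypes. The order of the members was much alike in both, with a Spearman correlation of 0.93 between the mean levels over the 48 genes, which come from the same libraries. The genes that changed place most were slc25a38a, which stood at rank 21 in grna-/- and rank 42 in grna+/+, slc25a15a, at rank 28 in grna-/- and rank 6 in grna+/+, and slc25a39, at rank 9 in grna-/- and rank 22 in grna+/+.

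**Figure D1:**
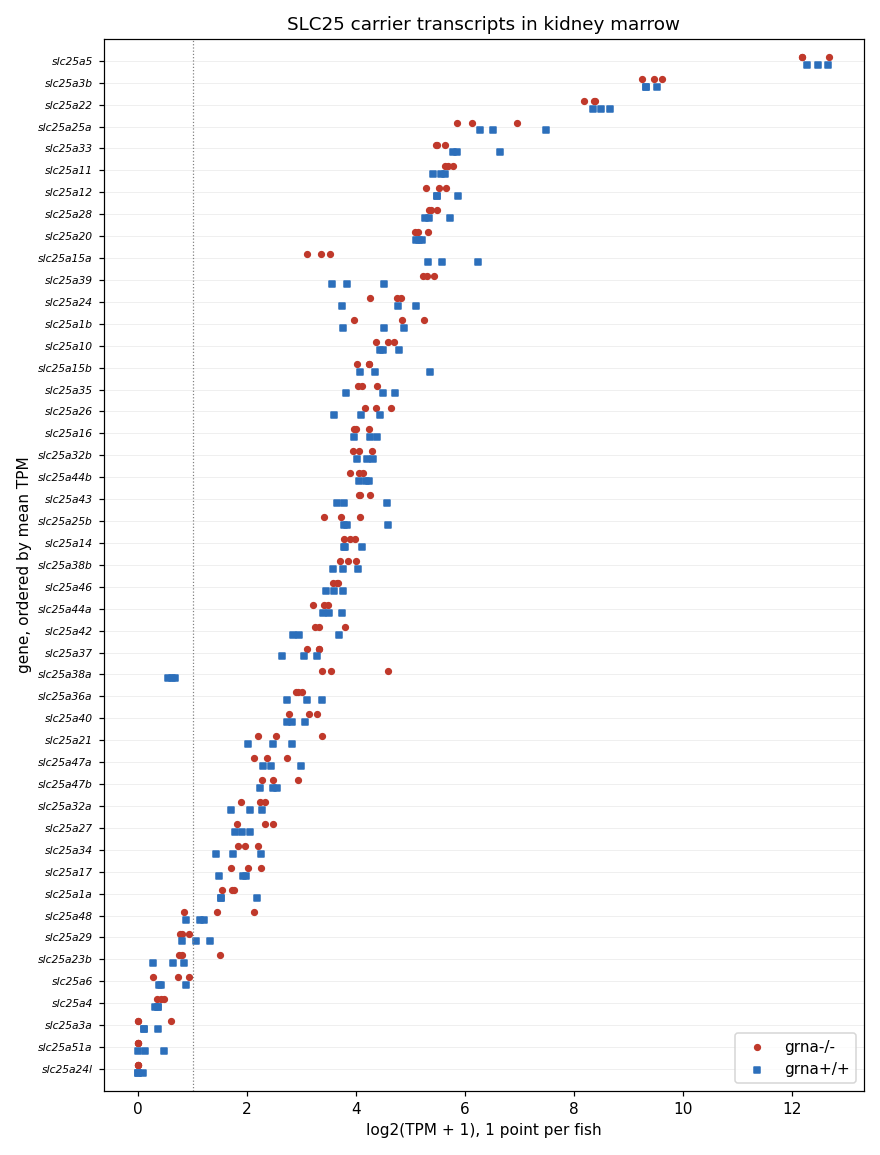
Level of 47 of the carrier genes in every fish, as log2(TPM + 1), with genes ordered by their mean and the dotted line at 1 TPM. Red circles are grna-/- fish and blue squares grna+/+ fish. The 2 genotypes lie on top of each other for most genes but stand apart for slc25a38a, slc25a15a, slc25a39 and slc25a33.

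The comparison of grna-/- with grna+/+ asks which marrow transcripts differ between the genotypes, in a study of myeloid differentiation. A member was tested when its mean over the 6 libraries was at least 1 TPM, which 41 of the 48 members reached. Among these slc25a38a and slc25a39 rose, slc25a15a fell, and 38 did not pass (limma on log2(TPM + 1), Benjamini-Hochberg adjusted p below 0.05 over 10750 genes). The 3 called members are 7.32% of the 41, where 1.15% of all genes tested were called, 0.660% upward and 0.493% downward. With the replicate number as a block the same 3 members passed, while the 71 rises and 53 falls over all genes tested became 149 and 122. slc25a38a passed the filter on low values through the grna-/- libraries alone, so it had to differ to be tested. Without that filter it was still called (adjusted p = 0.0297).

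Away from these 3 genes the family moved little. The log2 fold change was above 0 for 22 of the 41 tested members and for 57.5% of all genes tested. It reached an absolute value of 1 for the 3 called members alone, and for 4.66% of all genes tested. The median log2 fold change of the 41 members was 0.03, beside 0.07 over all genes tested, and the median absolute change was 0.17, beside 0.26. The 38 members that did not pass lay between -0.56 and 0.40, and 26 of the 41 lay within 0.2 of 0 on the log2 scale. Values of the 2 genotypes did not overlap for 5 tested members, which is 12.2%, while the same held for 24.6% of all genes tested. Of these 5, 3 were higher in grna-/-, slc25a38a and slc25a39 among them, and slc25a15a and slc25a33 were lower.

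A class of 6 members serves heme synthesis, iron or glutathione, and the 2 rises of the family are among them. SLC25A38 brings glycine into mitochondria, where it is joined to succinyl-CoA in the first step of heme synthesis, and its loss causes sideroblastic anemia in humans. slc25a38a was at 10.6, 22.9 and 9.33 TPM in grna-/- replicates 1 to 3, against 0.547, 0.463 and 0.606 TPM in grna+/+ replicates 1 to 3. Every grna-/- fish was far above every grna+/+ fish, and grna-/- replicate 2 was the highest. The whole reads recovered from the table behind these values were 131, 361 and 127 in grna-/- and 8, 6 and 9 in grna+/+. Means were 14.3 ± 7.50 TPM in grna-/- fish and 0.538 ± 0.0720 TPM in grna+/+ fish, a ratio of 26.5, and the log2 fold change was 3.21 with an SE of 0.323 (limma adjusted p = 0.00770). Without grna-/- replicate 2 the log2 fold change was 2.83 (adjusted p = 0.0121). The summed kidney tubule and erythroid markers were also highest in grna-/- replicate 2, at 5892 and 94455 TPM. In grna+/+ replicates 1 to 3 the tubule sum was 3419, 4066 and 2502 TPM and the erythroid sum 42926, 21656 and 51086 TPM. The part of either in slc25a38a was not tested.

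The paralog slc25a38b showed nothing of the kind. It was at 14.9, 11.98 and 13.4 TPM in grna-/- fish, against 15.4, 10.9 and 12.6 TPM in grna+/+ fish, so the ranges overlap almost fully. The log2 fold change was 0.05, with a 95% interval of -0.38 to 0.48 (limma adjusted p = 0.905), and its sign turned under 4 alternative settings. Mean levels of the copies were thus close in grna-/-, whereas in grna+/+ the b copy was 24.1 times as abundant. By fish, the a copy was below the b copy in grna-/- replicates 1 and 3 and above it in replicate 2.

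SLC25A39 imports glutathione, the main small antioxidant thiol of the cell, into mitochondria of mammalian cells, and zebrafish slc25a39 has been tied to heme synthesis. It was at 42.4, 38.5 and 36.4 TPM in grna-/- replicates 1 to 3, against 21.8, 10.8 and 13.3 TPM in grna+/+ replicates 1 to 3. The lowest grna-/- fish lay well above the highest grna+/+ fish. Means were 39.1 ± 3.01 TPM in grna-/- fish and 15.3 ± 5.78 TPM in grna+/+ fish (SD, n = 3 each), and the log2 fold change was 1.35 with an SE of 0.247 (limma adjusted p = 0.0492). The call sits at the threshold: 12 of 16 alternative settings ended it, with log2 fold changes of 1.15 to 1.62 over the 16 and adjusted p of 0.00100 to 0.176. Those 12 include leaving out any 1 of the 3 grna-/- libraries (adjusted p = 0.152, 0.176 and 0.120 without replicates 1 to 3) or grna+/+ replicate 2 (0.0756) or 3 (0.174). It held with the replicate number as a block (adjusted p = 0.0212).

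The other 4 members of the class did not pass. slc25a40, which shares the glutathione role in mammalian cells, averaged 7.46 ± 1.48 TPM in grna-/- fish and 6.37 ± 0.910 TPM in grna+/+ fish (limma adjusted p = 0.647). slc25a37 encodes mitoferrin 1, the iron importer of red cell precursors, and stood at 9.05, 9.04 and 7.62 TPM in grna-/- fish, against 7.24, 8.70 and 5.26 TPM in grna+/+ fish. These values overlap, and the log2 fold change was 0.27 (95% interval -0.23 to 0.76, adjusted p = 0.522). slc25a28 encodes mitoferrin 2, which imports iron in many cell types, and averaged 41.3 ± 2.41 TPM in grna-/- fish and 42.8 ± 7.72 TPM in grna+/+ fish (adjusted p = 0.925). Summed over the 6 genes the class was at 127, 132 and 114 TPM in grna-/- fish, against 104, 73.8 and 77.4 TPM in grna+/+ fish, and its ranges did not overlap. That sum includes slc25a38a and slc25a39, and each of the other 4 genes overlapped between the genotypes. The summed ranges of 3 more classes were apart. The pyrimidine nucleotide class, with slc25a33, and the ornithine and basic amino acid class, with slc25a15a, were lower in grna-/-. The coenzyme class was higher. Among single genes tested, 24.6% had ranges that did not overlap.

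Carriers of ornithine and other basic amino acids held the 1 fall of the family. SLC25A15 exchanges ornithine for citrulline across the inner membrane, a step that the mammalian urea cycle needs. slc25a15a was at 10.4, 7.56 and 9.31 TPM in grna-/- replicates 1 to 3, against 39.1, 74.3 and 46.6 TPM in grna+/+ replicates 1 to 3. The highest grna-/- fish was far below the lowest grna+/+ fish, and grna+/+ replicate 2 was the highest of all. It fell to a mean of 9.10 ± 1.45 TPM in grna-/- fish, against 53.3 ± 18.5 TPM in grna+/+ fish (SD, n = 3 each), and the log2 fold change was -2.39 with an SE of 0.253 (limma adjusted p = 0.00886). Without grna+/+ replicate 2 the log2 fold change was -2.12 (adjusted p = 0.00525), and without grna-/- replicate 2 it was -2.27 and the call was lost (adjusted p = 0.0526).

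slc25a15b, its paralog, was at 17.8, 15.3 and 17.8 TPM in grna-/- fish, against 15.8, 40.2 and 19.4 TPM in grna+/+ fish. grna+/+ replicate 2 stood far above the other 5 fish, which lay close together. The log2 fold change was -0.43 (95% interval -1.16 to 0.29, limma adjusted p = 0.483), and -0.05 without that library. slc25a29, a carrier of basic amino acids in mammals, averaged 0.787 ± 0.103 TPM in grna-/- fish and 1.12 ± 0.384 TPM in grna+/+ fish and lay below the filter.

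**Figure D2:**
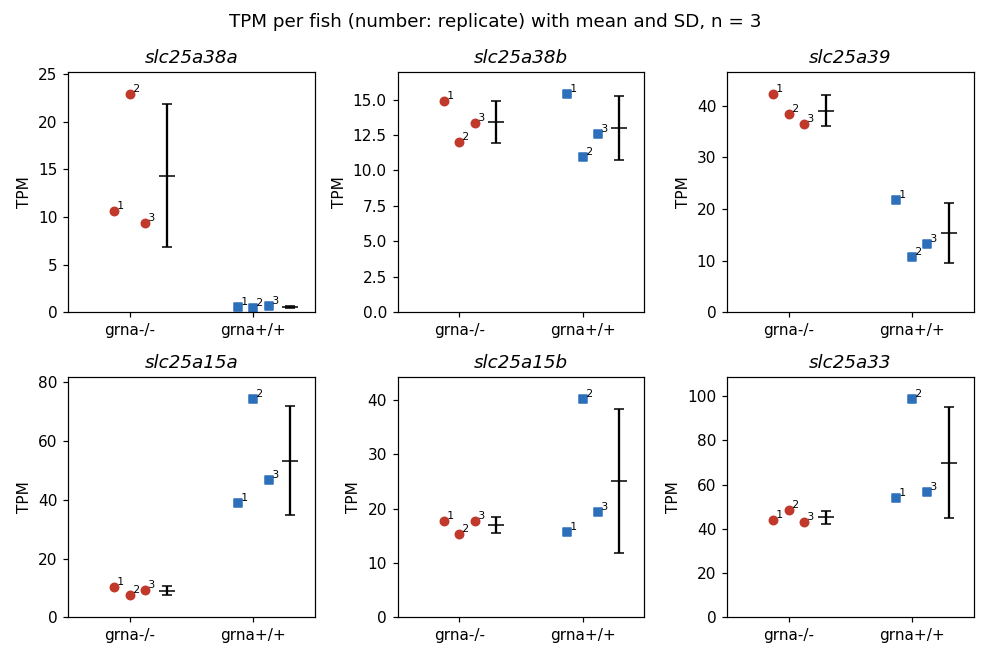
TPM of slc25a38a, slc25a38b, slc25a39, slc25a15a, slc25a15b and slc25a33 in each fish, grna-/- left and grna+/+ right, numbered by replicate, with the mean and SD of 3 fish beside the points. slc25a38a and slc25a39 are higher and slc25a15a lower in every grna-/- fish, while slc25a38b and slc25a15b overlap, and grna+/+ replicate 2 is the highest fish for slc25a15a, slc25a15b and slc25a33.

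Among nucleotide and phosphate carriers no member passed in limma or voom, and slc25a33 alone had an unadjusted p below 0.05. slc25a33, which carries pyrimidine nucleotides, came nearest of the 38, at 44.0, 48.5 and 43.2 TPM in grna-/- fish, against 54.0, 98.7 and 56.8 TPM in grna+/+ fish. Its ranges did not overlap, but grna+/+ replicate 2 was far above the other fish of its genotype. The log2 fold change was -0.56 (limma adjusted p = 0.268), and -0.29 without that library. slc25a36a, the other pyrimidine carrier gene in the table, averaged 6.72 ± 0.287 TPM in grna-/- fish and 7.54 ± 1.87 TPM in grna+/+ fish.

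slc25a25a and slc25a25b encode ATP-magnesium/phosphate carriers that respond to calcium. slc25a25a was at 68.7, 122 and 57.1 TPM in grna-/- fish, against 90.1, 177 and 76.1 TPM in grna+/+ fish, with replicate 2 the highest fish in each genotype and the ranges overlapping. slc25a25b averaged 12.6 ± 3.12 TPM in grna-/- fish and 16.3 ± 5.71 TPM in grna+/+ fish. Both had an adjusted p of 0.535 in limma. Their log2 fold changes were -0.44 and -0.33, and -0.08 and -0.07 without grna+/+ replicate 2. For slc25a5 the log2 fold change was -0.13, with a 95% interval of -0.49 to 0.23, and for slc25a3b it was 0.05, with an interval of -0.24 to 0.35.

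No carrier that links the mitochondrial matrix to cytosolic carbon metabolism passed in limma or voom, and each had an unadjusted p above 0.05 in both. slc25a11, the oxoglutarate/malate carrier of the malate-aspartate shuttle, averaged 50.9 ± 2.69 TPM in grna-/- fish and 45.5 ± 3.57 TPM in grna+/+ fish (limma adjusted p = 0.556). slc25a12, its aspartate/glutamate partner, averaged 44.2 ± 5.69 TPM in grna-/- fish and 48.5 ± 8.09 TPM in grna+/+ fish. The citrate carrier gene slc25a1b was the most spread of this class, at 27.8, 37.0 and 14.7 TPM in grna-/- fish, against 21.8, 28.5 and 12.6 TPM in grna+/+ fish. Replicate 2 was the highest and replicate 3 the lowest fish in each genotype. slc25a21, an oxodicarboxylate carrier, had an adjusted p of 0.695. slc25a22 had a log2 fold change of -0.19 (adjusted p = 0.450).

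No carrier of coenzymes passed in limma or voom, and none had an unadjusted p below 0.05 in limma. slc25a26, the S-adenosylmethionine carrier, averaged 20.1 ± 3.63 TPM in grna-/- fish and 15.9 ± 4.87 TPM in grna+/+ fish (limma adjusted p = 0.476). slc25a42, which carries coenzyme A, averaged 10.1 ± 2.41 TPM in grna-/- fish and 8.27 ± 3.17 TPM in grna+/+ fish (adjusted p = 0.593). The folate carrier genes slc25a32a and slc25a32b had log2 fold changes of 0.14 and -0.08.

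The carnitine/acylcarnitine carrier gene slc25a20, which brings fatty acids in for oxidation, was among the steadiest members. It averaged 35.3 ± 3.12 TPM in grna-/- fish and 34.8 ± 1.47 TPM in grna+/+ fish, and the 95% interval of its log2 fold change was -0.31 to 0.35. slc25a44a and slc25a44b belong to a carrier type for branched-chain amino acids. slc25a44a averaged 9.35 ± 0.986 TPM in grna-/- fish and 10.8 ± 1.51 TPM in grna+/+ fish, and slc25a44b 15.3 ± 1.43 TPM in grna-/- fish and 16.9 ± 1.15 TPM in grna+/+ fish. Neither passed (adjusted p = 0.615 and 0.673 in limma).

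slc25a14 and slc25a27, relatives of the uncoupling proteins, did not pass (limma adjusted p = 0.982 and 0.537). slc25a46, which sits in the outer membrane and acts in mitochondrial shape, was at 11.4 ± 0.371 TPM in grna-/- fish and 11.2 ± 1.31 TPM in grna+/+ fish. Of the 6 members given no substrate here, slc25a48 had the largest change, and at 0.795, 3.36 and 1.73 TPM in grna-/- fish against 1.21, 0.832 and 1.32 TPM in grna+/+ fish its ranges overlapped. slc25a47a averaged 4.38 ± 1.13 TPM in grna-/- fish and 5.09 ± 1.60 TPM in grna+/+ fish, and slc25a47b 5.03 ± 1.46 TPM in grna-/- fish and 4.40 ± 0.594 TPM in grna+/+ fish, neither of them called (limma adjusted p = 0.752 and 0.771).

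**Figure D3:**
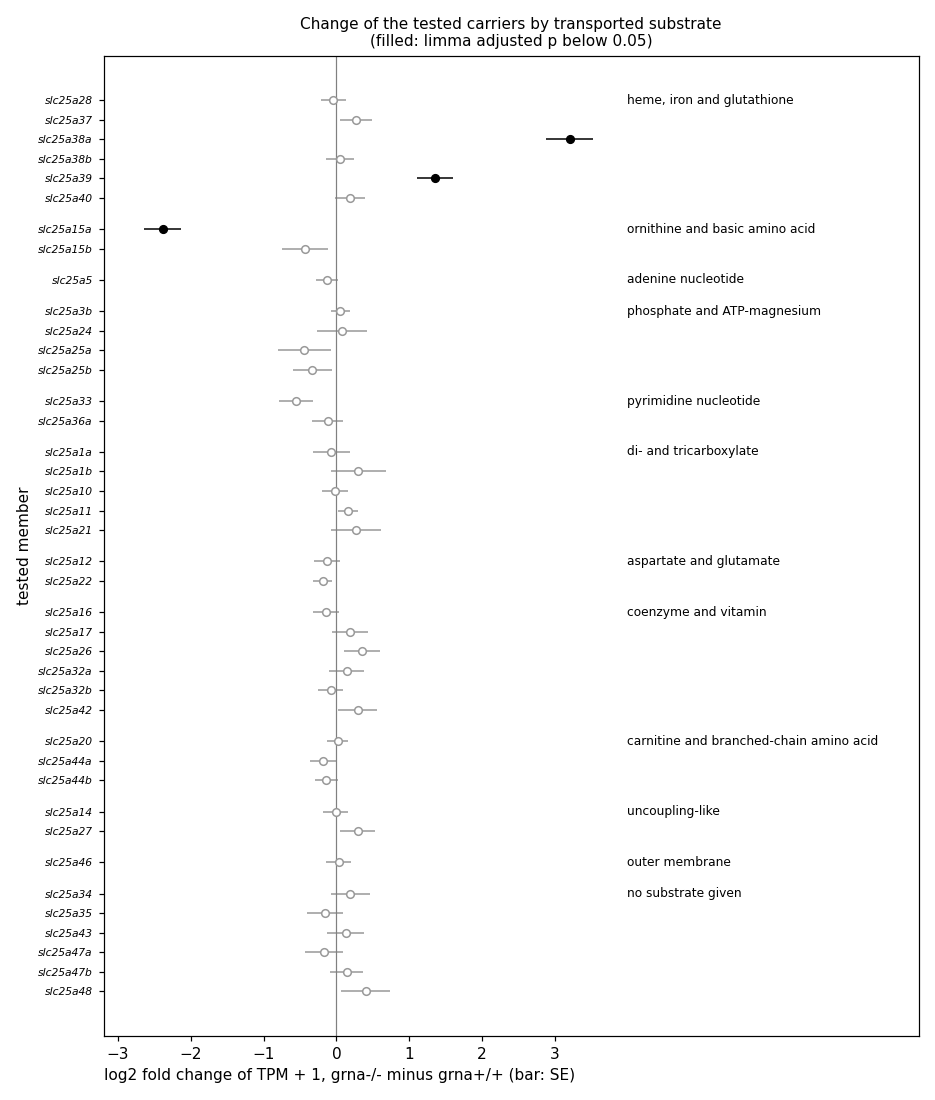
log2 fold change with SE of 40 of the tested carriers, grna-/- minus grna+/+, grouped by transported substrate, with filled points for limma adjusted p below 0.05. slc25a38a at 3.21, slc25a39 at 1.35 and slc25a15a at -2.39 stand out, and the other 37 drawn lie between -0.56 and 0.40.

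The 7 members below the filter were slc25a3a, slc25a4, slc25a6, slc25a23b, slc25a24l, slc25a29 and slc25a51a, and none of them exceeded 1.85 TPM or 28 reads in a library. slc25a4 and slc25a6, both ADP/ATP carriers, were at 0.335 ± 0.0608 and 0.587 ± 0.348 TPM in grna-/- fish, against 0.274 ± 0.0247 and 0.491 ± 0.297 TPM in grna+/+ fish. slc25a5 was thus the abundant ADP/ATP carrier of this tissue. The second phosphate carrier gene, slc25a3a, had 6, 0 and 0 reads in grna-/- and 4, 1 and 1 reads in grna+/+. slc25a51a was at 0 in all 3 grna-/- libraries and had 1, 0 and 4 reads in grna+/+, too few to compare. slc25a24l was above 0 in grna+/+ replicate 1 alone.

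Paralogs were compared within a fish, as the log2 ratio of TPM + 1 of one copy to the other. The added 1 pulls the ratio of a low copy towards 0. The 8 pairs differed in balance. slc25a3b, slc25a1b and slc25a32b each outweighed their a copy in every fish, slc25a25a outweighed slc25a25b, and the copies of slc25a44 and slc25a47 lay closer together. The log2 ratio of the a over the b copy overlapped between the genotypes in 6 of the 8 pairs.

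The slc25a38 and slc25a15 pairs were the 2 exceptions, and in both the a copy moved. Both a copies are called members, so the ratios rest on the same values. Among all single genes tested, 24.6% had ranges that did not overlap. slc25a38a supplied 41.6%, 65.7% and 41.1% of the pair's TPM in grna-/- replicates 1 to 3, against 3.43%, 4.05% and 4.59% in grna+/+ replicates 1 to 3. The log2 ratio was -0.02 ± 0.78 in grna-/- and -3.17 ± 0.21 in grna+/+ (SD, n = 3 each), a difference of 3.16 (SE 0.46). With a pseudocount of 0.5 the difference was 3.67, and with 0.1 it was 4.33, since slc25a38a lay below 1 TPM in grna+/+ fish. Summed, the pair was at 25.5, 34.9 and 22.7 TPM in grna-/- fish, against 15.97, 11.4 and 13.2 TPM in grna+/+ fish, with no overlap.

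slc25a15a supplied 36.9%, 33.1% and 34.3% of its pair in grna-/- and 71.2%, 64.9% and 70.7% in grna+/+. Here the ratio was tight among the fish of a genotype, also in grna+/+ replicate 2, where both copies were high. The log2 ratio was -0.84 ± 0.11 in grna-/- and 1.12 ± 0.21 in grna+/+, a difference of -1.95 (SE 0.14), so the more abundant copy was slc25a15b in grna-/- and slc25a15a in grna+/+. An exact two-sided permutation test of each ratio gave p = 0.1 for both pairs (0.400 adjusted over the 8 pairs by Benjamini-Hochberg), and 0.1 is the smallest p that 3 fish against 3 allow. The difference in ratio ran from -0.37 to 0.22 over the other 6 pairs. Reads that match both copies of a pair may have been split or dropped in counting, and this was not tested.

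**Figure D4:**
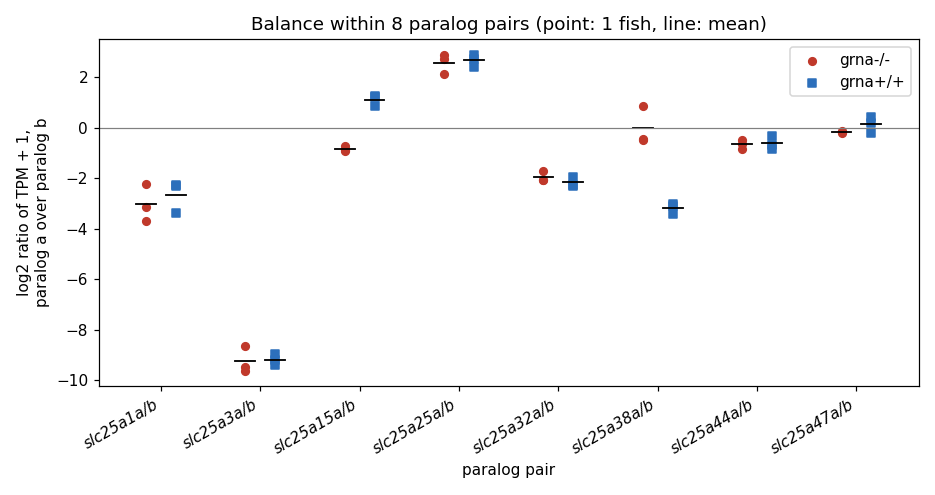
log2 ratio of TPM + 1 of paralog a over paralog b in each fish for 8 pairs, with grna-/- fish as red circles left of grna+/+ fish as blue squares and a line at each mean. The genotypes stand apart for slc25a15a/b and slc25a38a/b and overlap for the other 6 pairs.

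Genes that work next to the called carriers were followed too. Of 10 heme synthesis enzymes alas2 alone rose and none fell, where 0.660% of all genes tested rose and 0.493% fell. The median log2 fold change of the 10 was 0.02. alas2, the erythroid enzyme that uses the glycine brought in by SLC25A38, was at 642, 886 and 749.9 TPM in grna-/- fish, against 311, 237 and 419 TPM in grna+/+ fish (log2 fold change 1.26, limma adjusted p = 0.0432). Its ranges did not overlap, but the call was lost without any 1 of the 6 libraries (adjusted p = 0.0504 to 0.163) and in voom (0.0503). uros, the next enzyme by p, overlapped between the genotypes (adjusted p = 0.367). The 5 tested genes of mitochondrial iron-sulfur assembly all had fold changes above 0 with a median of 0.57, and none was called in limma or voom although 3 had an unadjusted p below 0.05. Of all genes tested, 57.5% had a fold change above 0 and 17.6% had such a p in limma. nfs1, the cysteine desulfurase, averaged 31.0 ± 2.48 TPM in grna-/- fish and 19.9 ± 3.12 TPM in grna+/+ fish (adjusted p = 0.147), and isca2 had an adjusted p of 0.161. None of 9 genes of glycine and serine metabolism passed in limma or voom, and gldc alone had an unadjusted p below 0.05 (adjusted p = 0.260, then amt at 0.326). slc25a38a, slc25a39, alas2 and the summed erythroid markers were each higher in all 3 grna-/- fish. Of these, alas2 is itself a called gene of the erythroid list. The part of red cell number in the carriers' values was not tested.

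Around ornithine, none of 11 tested genes passed in limma or voom, where limma called 1.15% of all genes tested. An unadjusted p below 0.05 was found for odc1 and arg2, as for 17.6% of all genes tested. odc1, which turns ornithine into polyamine precursors, was at 249, 215 and 376 TPM in grna-/- fish, against 460.5, 926 and 697 TPM in grna+/+ fish (log2 fold change -1.29, limma adjusted p = 0.0800, and 0.0409 with the replicate number as a block). arg2, the mitochondrial arginase that makes ornithine, was at 52.3, 86.4 and 52.7 TPM in grna-/- fish, against 68.1, 856 and 313 TPM in grna+/+ fish (adjusted p = 0.232). The ranges of odc1 were apart and those of arg2 overlapped, with grna+/+ replicate 2 the highest fish for both, as for slc25a15a. The summed neutrophil markers were lower in all 3 grna-/- fish as well, at up to 49608 TPM, against 50019.8 TPM or more in grna+/+ fish. The sum of grna+/+ replicate 2 was the lowest of its genotype, and lyz, the largest part of that sum, overlapped. With each tested marker weighted equally on the log2 scale, that library was not the lowest. Its mean deviation from the average of all fish was 0.48, the same as for grna+/+ replicate 3, while replicate 1 had 0.17. Deviations of the mutant fish ran from -0.79 to -0.08. The part of the neutrophil markers in the values of slc25a15a, odc1 and arg2 was not tested.

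Where 0.660% of all genes tested rose, ucp3 did so among 4 tested SLC25 relatives that carry other symbols. This uncoupling protein gene was at 58.8, 78.8 and 47.1 TPM in grna-/- fish, against 22.5, 29.2 and 17.8 TPM in grna+/+ fish, with no overlap (log2 fold change 1.37, limma adjusted p = 0.0461). The call was lost in voom (adjusted p = 0.0501) and without any 1 library other than grna+/+ replicate 2 (0.0695 to 0.163). ucp2 averaged 517 ± 105 TPM in grna-/- fish and 319 ± 71.2 TPM in grna+/+ fish (limma adjusted p = 0.148, and 0.0310 with the block), and ucp1 115 ± 56.4 TPM in grna-/- fish and 118 ± 48.3 TPM in grna+/+ fish. mtch2, an outer membrane relative, had an adjusted p of 0.516 in limma.

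Limma called 1.15% of all genes tested, and general mitochondrial genes gave no call in limma or voom. This held for 13 genes that import carriers into the inner membrane (median log2 fold change -0.07), 14 other mitochondrial transporters (0.18), 16 TCA cycle genes (0.09), 15 genes of carnitine and fatty acid oxidation (0.17) and 11 genes of mitochondrial mass (0.09). Of these lists in that order, 0, 1, 1, 1 and 2 genes had an unadjusted p below 0.05. The smallest limma adjusted p of each list belonged to tomm22 (0.327) and timm13 (0.380) of carrier import, sfxn1 (0.275) and tspo (0.286) of the other transporters, idh2 (0.243) and mdh1aa (0.332) of the TCA cycle, acadvl (0.199) and cratb (0.378) of fatty acid oxidation, and mfn2 (0.200) and tfam (0.225) of mitochondrial mass. At an unadjusted p below 0.05, 4 of the 41 carriers (9.76%) passed, namely the 3 called genes and slc25a33, against 17.6% of all genes tested.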

How the data were processed

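Messenger RNA of 6 kidney marrows, 1 fish each, was sequenced as 75 bp single reads, per the labels and the design text. The authors deposited 1 table of TPM for 15292 genes. The submitters' processing notes name featureCounts, Subread, DESeq2 1.26.0 and the builds GRCz10 and danRer10, with no role for any of them and no strand setting for the counting. The last row, Total, belongs to no gene and was kept out of all tests. It was taken as the count of reads per library.

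TPM of a gene stood in whole-number ratios across libraries once each library was multiplied by one factor (relative tolerance 1e-12), for all 11875 genes above 0 in all 6 libraries. None of 500 genes moved at random by up to 0.1% did so. Between 99.27% and 99.30% of the Total row was recovered in this way. They show the depth and entered voom, an alternative added after seeing the data. A factor shared by all 6 values of a gene would go unseen.

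Genes with a mean of at least 1 TPM were tested with limma 3.58.1 (R version 4.3.3) on log2(TPM + 1), with genotype alone and trended variances, two-sided, checked on simulated data. Fold changes are grna-/- minus grna+/+ and understate changes of low genes. "Rose" and "fell" mean a Benjamini-Hochberg adjusted p below 0.05. Replicates are separate fish. Fish that share a replicate number deviated together from their group means, with correlations of 0.136, 0.153 and 0.237 over 10750 genes. Each is above the bound of 0.1. Such correlations were not computed for fish with different numbers, so these values cannot decide whether a number pairs the fish. The labels leave the meaning of the numbers open. The main fit therefore does not pair the fish, and the replicate block is given as an alternative setting. Blocked values are given where they change a call that the text gives.

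Named were called members, the 20 smallest p, the 6 highest means, both members of each paralog pair, the heme, iron and glutathione class, and for pathway lists called genes and the 2 smallest p. The members and lists were chosen with earlier results of these data known. A RefSeq table held 46 of the 48 symbols and the other two as synonyms. No coordinates or sequences are printed, since the table's build, GRCz12tu, differs from that of the authors and protein sequences were not used here, so a planned count of a carrier motif was not run. The values of 1 member are not reported here, though it is in the counts and sums.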

Additional observations from a re-analysis of the deposited data

How the results depend on the processing

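slc25a38a was called under all 16 alternative settings (log2 fold change 2.83 to 4.59, adjusted p 0.000329 to 0.0410), and slc25a15a under 15 of 16 (-2.58 to -2.12), lost without grna-/- replicate 2. The count of members called higher, 2, became 1 with a pseudocount of 0.1 or 0.5, no filter, a filter at 5 TPM, median-of-ratios scaling, no variance trend, or voom on recovered reads, since slc25a39 lost its call. It ran from 1 to 2 when 1 library was left out and was 5 with array weights, which added slc25a37, slc25a42 and slc25a1b. The count called lower ran from 0 to 1 when 1 library was left out. The replicate block changed no call of a member.

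Among all genes tested, 71 were higher and 53 lower. The counts were 23 and 21 with no filter, 45 and 29 with a filter at 5 TPM, 46 and 30 with no variance trend, 43 and 29 with voom, 149 and 122 with the replicate block, and 1656 and 791 with array weights. They ran from 10 to 112 higher and from 5 to 92 lower when 1 library was left out. The causes were not tested.

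Of 442 values of 28 named members, 18 changed sign, none of them past an absolute log2 value of 0.15 and none of a called gene. With array weights they were slc25a26 (-0.08), slc25a48 (-0.05), slc25a1a (0.12) and slc25a28 (0.08). With quantile normalization they were slc25a32a (-0.03), slc25a38b (-0.05) and slc25a47b (-0.02), and with median-of-ratios scaling slc25a3b (-0.01) and slc25a38b (-0.01). The other 9 arose with 1 library left out, where values ran from -0.01 to 0.66 for slc25a1b, -0.03 to 0.15 for slc25a3b, -0.19 to 0.15 for slc25a1a, -0.01 to 0.28 for slc25a32a, -0.06 to 0.17 for slc25a38b, -0.33 to 0.04 for slc25a47a, -0.05 to 0.28 for slc25a47b and -0.13 to 0.10 for slc25a28. Of 72 differences in paralog ratio, 6 changed sign, all with 1 library left out. These ran from -0.35 to 0.14 for slc25a3a/b, -0.27 to 0.10 for slc25a25a/b and -0.16 to 0.11 for slc25a44a/b. With the replicate block as sign flips, the smallest possible p is 0.25, and the slc25a38 (difference 3.16), slc25a15 (-1.95), slc25a25, slc25a32 and slc25a47 pairs all gave it.

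Members below 1 TPM rest on 28 reads or fewer per library and were left out by the filter.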

Other observations

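The fish with the highest and the lowest value was also counted over the tested members. grna+/+ replicate 2 held the highest or the lowest value of the 6 libraries for 24 of the 41 tested members, 11 as the highest and 13 as the lowest. The same count over all genes tested was not made. This library also stood furthest from the rest over all genes tested (median correlation 0.934). The highest value fell in grna-/- replicate 1 for 5 members, in replicate 2 for 10 and in replicate 3 for 3, and in grna+/+ replicate 1 for 10 and replicate 3 for 2. slc25a24, a calcium-regulated ATP-magnesium/phosphate carrier, was at 26.0, 18.1 and 27.4 TPM in grna-/- fish, against 33.5, 12.3 and 26.2 TPM in grna+/+ fish, lowest in replicate 2 of each genotype. slc25a43 was at 15.7, 15.7 and 18.1 TPM in grna-/- fish, against 11.6, 22.8 and 12.7 TPM in grna+/+ fish. These members were picked after their values were seen, and no test was made of them beyond that over all genes (limma adjusted p = 0.925 and 0.819).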
